A study of Mus musculus with 4 samples.

Results

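Slc3a2, Slc7a5, Asns and Psph are 4 genes of amino acid import and synthesis that the transcription factor ATF4 is known to induce. The histone acetylation H3K27ac, which marks active promoters and enhancers, was examined at them in Sv129 mouse embryonic stem cells (mESCs) by ChIP-seq. The peaks were chosen by gene symbol, as every row of the peak table listed under one of the 4 names, which gave 6 peaks of 4088. The groups were cells without folate (0 mg/L, FA0) and cells with normal folate (4 mg/L, FA4), with 1 immunoprecipitated (IP) library and 1 input library each, 4 libraries in all. Both groups came from 1 cell line that was split into the different media. Both media were based on DMEM with fetal bovine serum, leukemia inhibitory factor and added non-essential amino acids, and the FA4 medium was the FA0 medium with folate added. The time spent in each medium was not given in the sources used here.

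Each row of the table is a region where fragments of the FA4 IP library exceeded the local background estimated from the FA0 IP library. H3K27ac is therefore read as lower in FA0 than in FA4 at every region listed. No column states this order. It was taken from the name under which the study lists the same promoter peaks. The H3K27ac result that the study reports points the other way. It describes slightly higher H3K27ac at target genes in folate-deficient cells than in controls, and more binding at Shh genes. With the reverse order each difference below would turn round. Regions with more H3K27ac in FA0 were not analysed here. The values per peak are the pileup, which is the number of FA4 fragments stacked at the summit, and the fold, which is FA4 pileup plus 1 over FA0 local background plus 1. Fold thus runs FA4 over FA0, and a larger fold means a lower FA0 level relative to FA4. The FA0 local background was recovered from the pileup and the fold and is the peak caller's estimate around the peak, not an FA0 pileup. Since each condition had a single IP library, the differences have no replicate check and no test between conditions was possible. Library totals were not analysed here. Depth is seen in the pileups, from 8 to 265 fragments with a median of 12 over all peaks, and the intervals given for them (exact Poisson, 95%) cover counting error only.

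ATF4 is the effector of the amino acid response. When an amino acid runs short, uncharged tRNA activates the kinase GCN2, which phosphorylates the initiation factor eIF2, and this slows general translation while ATF4 mRNA is translated more. ATF4 then binds, usually with a C/EBP partner, to a composite element at genes that import amino acids, make them and load them onto tRNA. Slc3a2 encodes the heavy chain CD98 and Slc7a5 the light chain LAT1 of a transporter that exchanges glutamine for leucine and other large neutral amino acids. Asns encodes asparagine synthetase. Psph encodes phosphoserine phosphatase, the last enzyme of serine synthesis, and serine is the main donor of one-carbon units to folate.

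The promoter windows of the members show where the recognition element lies and how the peaks sit against it. The motif searched was TGATGNAAN on both strands, a common form of the composite element. RefSeq windows of 300 bases (GRCm38.p6, from 250 bases before to 50 after a start site, C57BL/6J sequence) were matched by symbol for Slc3a2, Asns and Psph. The Asns window (chr6:7693160-7693459, minus strand) held 1 match, TGATGAAAC, which begins 23 bases before the start site and is shown in capitals.
Asns: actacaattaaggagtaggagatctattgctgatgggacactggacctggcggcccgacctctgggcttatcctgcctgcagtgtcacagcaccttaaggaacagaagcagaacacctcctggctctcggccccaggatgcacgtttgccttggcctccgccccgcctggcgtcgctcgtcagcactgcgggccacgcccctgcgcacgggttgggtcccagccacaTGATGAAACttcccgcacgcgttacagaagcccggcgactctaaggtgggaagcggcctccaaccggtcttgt
The Psph window (chr5:129787204-129787503, minus strand) held no match. It is shown because it alone of the 3 windows touched a peak, and its capitals mark the 53 bases that lie inside the Psph peak.
Psph: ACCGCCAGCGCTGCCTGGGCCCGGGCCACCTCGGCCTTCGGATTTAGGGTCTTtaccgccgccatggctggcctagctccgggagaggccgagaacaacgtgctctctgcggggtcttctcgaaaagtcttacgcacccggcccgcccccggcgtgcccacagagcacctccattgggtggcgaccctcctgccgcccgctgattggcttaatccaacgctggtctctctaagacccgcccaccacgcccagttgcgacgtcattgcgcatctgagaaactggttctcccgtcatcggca
The Slc3a2 window (chr19:8713848-8714147, minus strand) also held no match and lies 35 bp upstream of the nearer Slc3a2 peak.
Slc3a2: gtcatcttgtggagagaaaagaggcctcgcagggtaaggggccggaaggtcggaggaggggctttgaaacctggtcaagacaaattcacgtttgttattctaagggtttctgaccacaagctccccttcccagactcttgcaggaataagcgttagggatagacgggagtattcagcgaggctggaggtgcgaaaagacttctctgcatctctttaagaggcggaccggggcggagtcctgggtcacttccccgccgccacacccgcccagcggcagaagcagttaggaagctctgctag

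In all, 1 of the 3 windows held the motif, and the narrower form TGATGCAAN was found in 0 of 3. Of all 32851 promoter windows of this length, 3.95% held TGATGNAAN and 0.889% held TGATGCAAN. A match describes letters and not a bound site, and the bases under the peaks themselves were not read.

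All 4 genes had a promoter peak, meaning a peak within 3 kb of a start site, in the list, against 4.76% of 21887 protein-coding genes with a promoter peak and 9.28% with a peak of any class. The genes were chosen with these results known, so the count describes the choice. Slc3a2 and Slc7a5, the chains of the same transporter, had 2 peaks each, and Asns and Psph, the enzymes, had 1 each. Of the 1041 protein-coding genes with a promoter peak, 108 had 2 or more (10.4%).

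Slc3a2 carried the tallest peak of the 4 genes. Its peak 1 (chromosome 19, 8713178 to 8713812, mm10) had an FA0 background of 34.1 and an FA4 pileup of 107 (87.7 to 129), which gave a fold of 3.07 with −log10 q of 17.6. Its peak 2 (8712273 to 8712828) had an FA0 background of 32.7 and an FA4 pileup of 83 (66.1 to 103), with a fold of 2.49 and −log10 q of 8.47. The pileup intervals of the pair overlap, and the FA0 background was nearly equal at both, 1.04 times as high at peak 1. The peaks were 635 and 556 bp wide, with summits 940 bp apart and 349 bp between their edges. Both were annotated as promoter within 1 kb of a start site.

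Slc7a5 carried both the largest fold and the lowest peak of the 4 genes. Peak 1 (chromosome 8, 121898806 to 121899347) had an FA0 background of 17.4 and an FA4 pileup of 61 (46.7 to 78.4), with a fold of 3.36 and −log10 q of 10.9. Peak 2 (121896334 to 121896640) had an FA0 background of 12.8 and an FA4 pileup of 29 (19.4 to 41.6), with a fold of 2.17. At −log10 q of 1.48 peak 2 stood close to the end of the list, where the lowest value is 1.31. Here the pileup intervals of the pair do not overlap, the taller peak having 2.10 times the pileup of the other on 1.36 times the background. Their summits were 2454 bp apart. Peak 1, the stronger, was annotated as promoter at 2 to 3 kb and was the sole peak of the 6 outside the inner class of 1 kb, and it was tall for its class, whose median pileup was 12.5.

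Asns had the smallest fold. Its peak (chromosome 6, 7692048 to 7692388) had an FA0 background of 23.3 and an FA4 pileup of 48 (35.4 to 63.6), with a fold of 2.02, −log10 q of 2.23 and a width of 341 bp. Psph had the widest peak (chromosome 5, 129787451 to 129788405), 955 bp, which ranked 34 by width among the 4088 peaks. Its FA0 background was 25.1 and its FA4 pileup 69 (53.7 to 87.3), with a fold of 2.69 and −log10 q of 8.07. The Psph summit lay 200 bp from the edge nearest to the gene and 754 bp from the far edge.

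**Figure D1:**
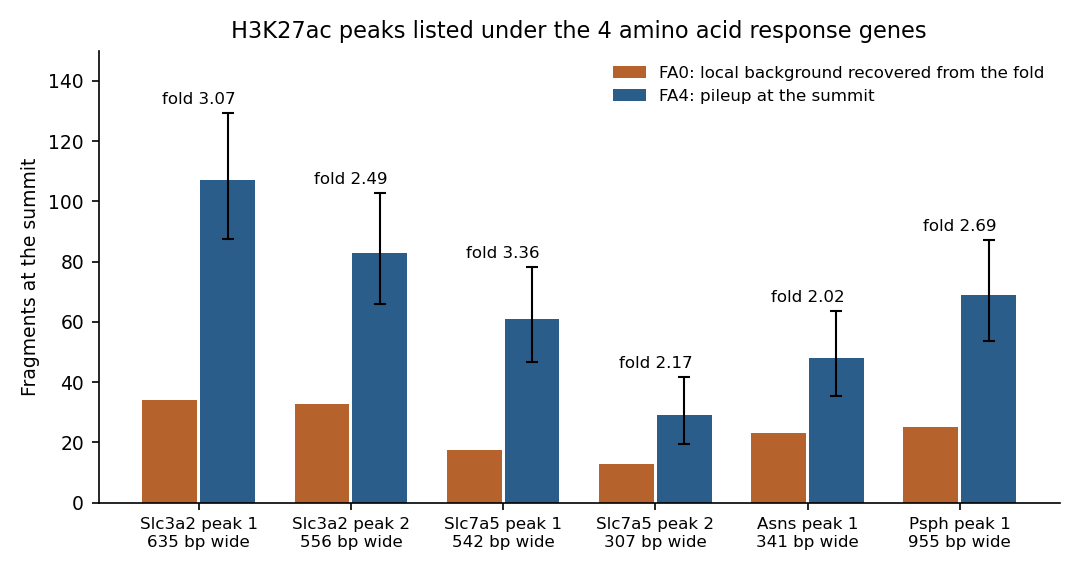
FA0 local background (left bar of each pair) and FA4 pileup at the summit (right bar) in fragments for the 6 peaks of the 4 genes, with exact Poisson 95% intervals of the pileup as error bars and no interval for the background. FA0 ranged from 12.8 to 34.1 and FA4 from 29 to 107, with the largest fold at Slc7a5 peak 1 and the smallest at Asns.

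The peaks took different positions against the gene starts. All 4 genes are transcribed from the minus strand. Relative to the start sites used by the authors, with upstream distances negative, the summits of Slc3a2 peak 1, Slc7a5 peak 2, Asns and Psph lay at -235, -21, -127 and -202 bp. The summit of Slc3a2 peak 2 lay at 335 bp and that of Slc7a5 peak 1 at -2475 bp. These start sites belong to the nearest annotated transcript, which for 3 of the 4 genes is shorter than the RefSeq gene.

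For Slc7a5 the transcript used is 8129 bp long, while the RefSeq gene spans 26541 bp (chromosome 8, 121881146 to 121907686). Measured from the RefSeq 5′ end, the summits of peaks 1 and 2 lay 8709 and 11163 bp downstream, inside the gene. The nearest listed peak to that 5′ end was Slc7a5 peak 1, whose edge was 8339 bp away. By RefSeq start sites, then, 3 of the 4 genes had a peak within 3 kb of a start, a comparison that was added after seeing the data. Slc7a5 had none, but no promoter window was matched for it, so its outermost 5′ end alone was used. Slc3a2 counted only through the start site of its promoter window, so the genes were not judged on like start sites. For Slc3a2 the start site of the RefSeq window lay upstream of both peaks, with the summits 307 and 1247 bp downstream of it. The outermost RefSeq 5′ end of Slc3a2 is farther still, 9779 bp upstream of the summit of peak 1.

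For Asns the RefSeq start lay 860 bp upstream of the summit, so the peak was inside the transcribed region, and 771 bp separated it from the promoter window with the motif printed above. The Psph peak was the reverse case. It lay upstream of the gene and began 95 bp downstream of the RefSeq start of Cct6a, a subunit gene of the cytosolic chaperonin on the opposite strand that starts at position 129787356. The whole Psph peak therefore lay inside Cct6a, its summit 295 bp after the Cct6a start, and no peak was listed under the name Cct6a. Which of these divergent genes the acetylation belongs to cannot be told apart from a peak position.

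A similar arrangement was present beyond the Slc3a2 5′ end. A peak listed under the snoRNA gene Gm25855 (chromosome 19, 8723526 to 8723957) started 157 bp past the outermost Slc3a2 5′ end and 39 bp after the start of Snhg1, a divergent snoRNA host gene. Its FA0 background was 22.2 and its FA4 pileup 101 (82.3 to 123), with a fold of 4.40, larger than at any of the 6 peaks. A neighbouring peak listed under the snoRNA gene Gm24452 had an FA0 background of 18.8, an FA4 pileup of 64 and a fold of 3.28. With peaks placed by their summit in the RefSeq gene or up to 5 kb outside it, whatever name they carry, the 4 genes had 8 peaks in place of 6, and these were the 2 added.

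Within 50 kb of the genes there were 4 more peaks. Near Slc3a2 a peak at 8735873 to 8736216, listed with the identifier ENSMUSG00000110423 and no symbol, had an FA0 background of 6.32, an FA4 pileup of 39 and a fold of 5.47. On the 3′ side of Slc7a5 the lincRNA gene Gm26812 had 2 peaks, with FA0 backgrounds of 20.8 and 21.2, FA4 pileups of 61 and 65 and folds of 2.85 and 2.98. The lincRNA gene Gm42047 had a low peak farther off, with an FA0 background of 1.60, the lowest value of any listed peak, and an FA4 pileup of 11. Asns and Psph had no other peak in that range.

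**Figure D2:**
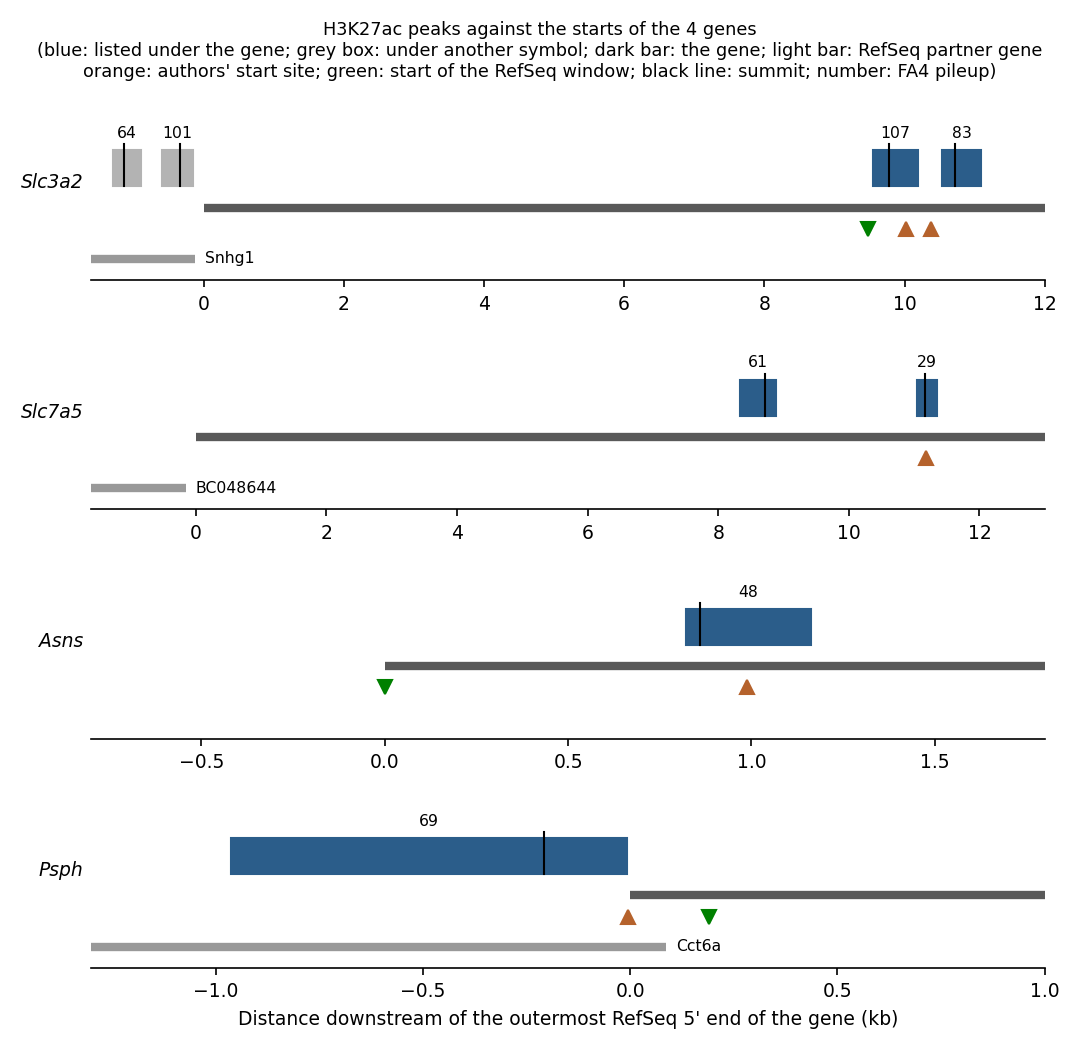
Positions of the peaks at the 4 genes, in kb downstream of each gene's outermost RefSeq 5′ end, with the FA4 pileup above each peak. The Slc7a5 summits lie 8709 and 11163 bp inside the gene, the Asns summit lies 860 bp inside it, and the Psph peak lies outside the gene and within Cct6a.

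Among all peaks the 6 were tall with small folds. Their median FA4 pileup was 65, against 12 over all 4088 peaks and 44 over the 1065 promoter peaks within 1 kb, and their median FA0 background was 24.2, against 1.96 and 16.2. The lowest background of any peak, 1.60, was also the first quartile over all peaks. Their median fold was 2.59, against 3.84 over all peaks and 2.85 over promoter peaks within 1 kb. A fold of at least 3 was reached by 2 of the 6, Slc3a2 peak 1 and Slc7a5 peak 1, against 77.8% of all peaks. A low peak needs a larger fold to pass the threshold of the peak caller than a tall peak does.

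Set beside the other 534 promoter peaks whose FA0 background lay between the lowest and highest of the 6, the members spread widely. Those peaks had a median fold of 2.47 (quartiles 2.18 and 2.85). The fold of Slc7a5 peak 1 was above 90.6% of them and that of Slc3a2 peak 1 above 83.1%. Psph (65.5%) and Slc3a2 peak 2 (51.9%) lay in the middle. Slc7a5 peak 2 (24.2%) and Asns (13.5%) were near the low end. By −log10 q over all peaks Slc3a2 peak 1 ranked 46 of 4088 and Slc7a5 peak 1 ranked 143, while Asns ranked 2760 and Slc7a5 peak 2 ranked 3694.

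**Figure D3:**
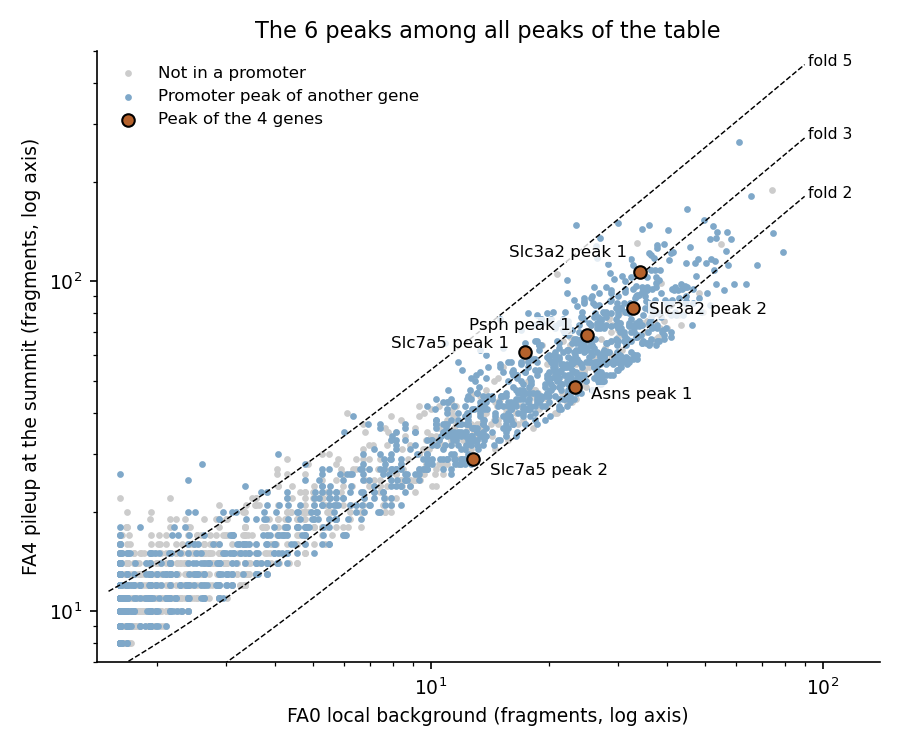
FA0 local background against FA4 pileup at the summit for all 4088 peaks, in fragments on log axes, with dashed lines of equal fold. The 6 peaks of the 4 genes lie at FA0 backgrounds of 12.8 to 34.1, with Slc7a5 peak 1 and Slc3a2 peak 1 above the line of fold 3 and Asns next to the line of fold 2.

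The genes with promoter peaks most like the members in pileup and background came from several other processes. Over the strongest promoter peaks of 1037 other protein-coding genes, and from this single pair of libraries, the nearest to Slc3a2 were the pluripotency factor gene Klf2 (FA0 background 35.6, FA4 pileup 103) and the insulator protein gene Ctcf (32.7 and 112). Nearest to Slc7a5 were the cell polarity gene Pard6a (FA0 17.4, FA4 60) and Mcts2 (17.9 and 58). Nearest to Asns were the RNA-binding protein gene Hnrnpc (FA0 23.2, FA4 47) and Cuta (22.9 and 49), and nearest to Psph the cell cycle gene Cks2 (25.1 and 70) and the ribosomal protein gene Rpl7 (25.3 and 67). Klf2, Ctcf and Pard6a lie on chromosome 8, as Slc7a5 does, and the rest of these nearest genes lie on other chromosomes. Whether chromosome 8 bears on this likeness was not tested.

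The rest of the amino acid response was described from 5 lists with 59 genes that do not share members. Of these, 20 had a promoter peak (33.9%, exact binomial 95% interval 22.1 to 47.4), against the 4.76% of all protein-coding genes, and without the 4 members 16 of 55 did (29.1%, 17.6 to 42.9). The lists were chosen by hand with earlier results of these data known. Their shares and intervals therefore describe the choice and are no test of enrichment. The median fold at the strongest promoter peak of the 20 genes was 3.07, and that of all 1041 protein-coding genes with such a peak was 3.11. Chromosome 8 held 11.3% of all peaks and 5 of the 59 genes, of which 4 (Slc7a5, Gpt2, Eif4ebp1 and Aars) had a promoter peak. Off chromosome 8 the count was 16 of 54 genes (29.6%), against 4.6% of protein-coding genes there. Of all 21887 protein-coding genes 20844 lie off chromosome 8, and of the 1041 with a promoter peak 958 do. The part that chromosome 8 plays in the Slc7a5 values was not tested.

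Amino acid transporters had 3 of 10. Slc7a1, a cationic amino acid transporter, was the one besides the members, with an FA0 background of 3.82, an FA4 pileup of 16 and a fold of 3.53. In the SLC3 and SLC7 families, which hold the heavy chains and their light chains, the same 3 of 17 genes had a peak. None was listed for Slc7a6, Slc7a7, Slc7a8, Slc7a10 or Slc7a11, the other light chains that pair with the Slc3a2 heavy chain.

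Enzymes of amino acid and one-carbon synthesis had 5 of 14. Mthfd2, a mitochondrial folate enzyme, had an FA0 background of 13.8, an FA4 pileup of 51 and a fold of 3.50. Cth, the last enzyme of cysteine synthesis, had 12.3 in FA0 and 44 in FA4 (fold 3.38), and Gpt2, a mitochondrial alanine transaminase, had 11.7 in FA0 and 38 in FA4 (fold 3.07). In the serine synthesis list 2 of 5 genes had a promoter peak, Psph and Shmt1, a serine hydroxymethyltransferase (FA0 2.50, FA4 14, fold 4.28). Psat1, the transaminase just before Psph in the pathway, had a distal intergenic peak alone, 45639 bp from the start site (FA0 1.60, the lowest background listed, and FA4 11). No peak was listed for Phgdh, the first enzyme, or Shmt2, a mitochondrial serine hydroxymethyltransferase.

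Regulators and stress effectors had 2 of 16. Eif4ebp1, a repressor of cap-dependent translation, had an FA0 background of 46.5 and an FA4 pileup of 95 (fold 2.02). Trib3, a pseudokinase that feeds back on ATF4, had 21.5 in FA0 and 56 in FA4 (fold 2.54). No peak was listed for Atf4 itself. In the sensing arm 1 of 7 genes had a promoter peak, Eif2s1, which encodes the phosphorylated subunit of eIF2 (FA0 27.7, FA4 72, fold 2.54). Gcn1, an activator of GCN2, had an exonic peak (FA0 2.48, FA4 16), and the GCN2 gene Eif2ak4 had none listed.

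Aminoacyl-tRNA synthetases of the response had 9 of 12, the highest share of the 5 lists. Yars had an FA0 background of 28.9 and an FA4 pileup of 94 (fold 3.18), Nars 15.3 and 63 (3.93), Aars 29.6 and 83 (2.75), and Mars1 10.9 and 36 (3.10). The count was 7 of 12 at −log10 q of at least 2, where Lars (−log10 q of 1.33, fold 2.12) and Cars (1.94, fold 1.85) dropped out. At a fold of at least 3 it was 5 of 12. Differences in share between the lists were not tested. Each peak carries the name of the closest annotated start, and as at Psph it may equally belong to a neighbouring gene.

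**Figure D4:**
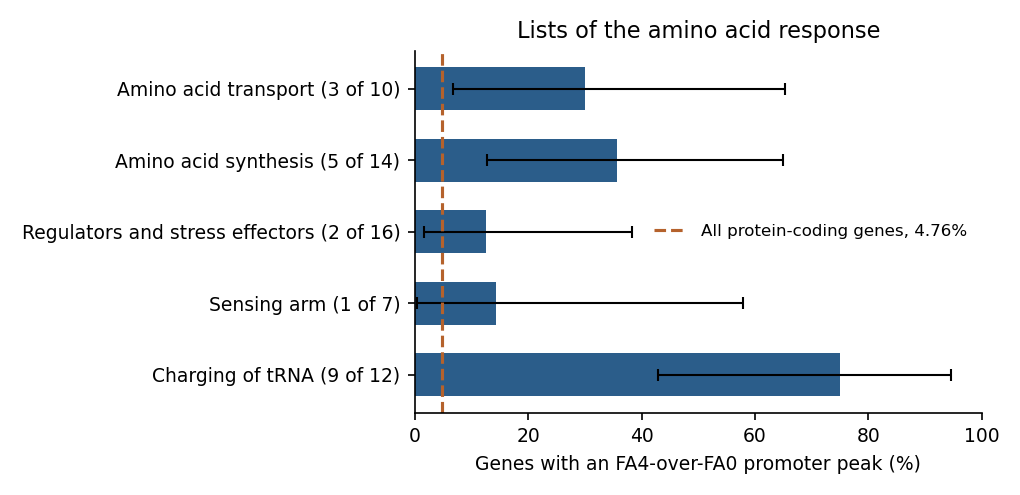
Percent of genes in each of the 5 lists with a promoter peak in which FA4 exceeded the FA0 local background, with exact binomial 95% intervals, and the 4.76% of all protein-coding genes as a dashed line. The count was 3 of 10 for transport, 5 of 14 for synthesis, 2 of 16 for regulators, 1 of 7 for the sensing arm and 9 of 12 for tRNA charging. The lists were chosen with earlier results of these data known, so the shares describe the choice.

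The composite element of ATF4 was more frequent in the response lists than in promoters at large. Among the list genes with a matched window it was about as frequent with and without a promoter peak. Promoter windows were matched for 48 of the 59 genes, and 17 of them held TGATGNAAN (35.4%), against 4.11% of 17492 protein-coding genes with a window. Many genes of these lists are known as ATF4 targets through this element, so the list is not independent of it. Among the matched genes with a promoter peak 5 of 13 held the motif (38.5%), and among those without one 12 of 35 did (34.3%). A window was matched for only 13 of the 20 list genes with a promoter peak, so the comparison does not cover the rest. Genes with both a promoter peak and the motif included Asns, Trib3, Iars and Yars, whose sites are shown here with 10 bases on each side and the match in capitals, in the direction of transcription.
Asns: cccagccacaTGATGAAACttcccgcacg
Trib3: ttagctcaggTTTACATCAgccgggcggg
Iars: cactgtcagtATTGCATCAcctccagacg
Yars: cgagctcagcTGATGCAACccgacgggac
Iars and Yars also matched the narrower form with C at the open position, and Asns and Trib3 did not. Motif and peak were paired by gene and not by position, and none of these sites lay in a listed peak. The Asns, Trib3 and Iars windows held 0 bases of a peak. In the Yars window a peak covered bases 273 to 300, past the motif. The Iars window has its start site at 49682130 on chromosome 13, while the stronger Iars peak began at 49706877.

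Marker genes of the labelled cell type and of other cell types were looked up in the same list of peaks. Promoter peaks were listed for 7 of 12 mESC markers, among them Zfp42 (FA0 40.3, FA4 143), Sox2 (47.4 and 104), Klf2 (35.6 and 103) and Pou5f1 (45.1 and 96). Of the 7, 2 lie on chromosome 8 (Zfp42 and Klf2). Promoter peaks were listed for 1 of 6 trophoblast markers (Tfap2c), and for 0 of 8 mesoderm and endoderm, 0 of 8 feeder fibroblast and 0 of 5 neural progenitor markers. Over all protein-coding genes the share was 4.76%, and a count of 0 in lists this short is near that share. In FA4 the Zfp42 peak was taller than all 6 member peaks, and those of Sox2, Klf2 and Pou5f1 were taller than all of them but Slc3a2 peak 1. A marker without a listed peak may still be acetylated in both conditions, since the list holds differences and not levels.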

How the data were processed

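Chromatin was digested enzymatically, immunoprecipitated with anti-H3K27ac and made into PCR-amplified libraries without molecular identifiers. The submitters' processing notes name bcl2fastq 2.17, Bowtie 1.1.2, mm10 and MACS2 2.1.0. Settings of these tools were not stated. The deposited pileup is the signal at the summit in whole fragments, the deposited fold enrichment is a ratio, and the deposited −log10 q-value is that of the peak caller against local background. The 1538 peaks of the promoter table were identical in the full table, so the full table was used. Input libraries were not analysed here. FA0 background was computed as (pileup + 1) / fold − 1.

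RefSeq genes of GRCm38.p6, which shares the coordinates of mm10, were found by symbol or unambiguous synonym, 2022 of 2044 protein-coding symbols matching. Members, lists and alternatives were chosen with earlier results of these data known. Named were all member peaks, up to 4 further genes per list by −log10 q, list genes with other peaks alone, the 2 nearest genes in log2 pileup and log2 background (Euclidean distance), and peaks within 50 kb. Light chains, genes without a peak, the genes with a motif (the site of 1 further gene is not reported here), Cct6a and Snhg1 were named after values were seen. Code was tested on simulated data. The versions were Python 3.11.15 with scipy 1.17.1, numpy 2.4.6, pandas 2.3.3 and, for plots, matplotlib 3.10.9.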

Additional observations from a re-analysis of the deposited data

How the results depend on the processing

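With a fold of at least 3, the genes with a peak and the genes with a promoter peak each fell to 2 of 4 (Slc3a2 and Slc7a5). The member peaks fell to 2 of 6 and the response list genes with a promoter peak to 11 of 59, as fewer peaks enter. The share of all protein-coding genes with a promoter peak at that fold was not computed, so 11 of 59 has no baseline here. The motif was found in 0 windows with its narrower form. Under the other alternatives these counts and the median fold and pileup stayed within 1.5 times of the values reported, with 3 of 4 genes at −log10 q of at least 3, where Asns dropped out, and 3 of 4 by RefSeq start sites, where Slc7a5 did. Slc7a5 was judged there by its outermost 5′ end alone, for want of a promoter window. Of 35 counts over single lists, 29 stayed within that range, 5 were lower and 1 was higher. Start sites of RefSeq, the list without the 4 genes and the list without chromosome 8 were added after seeing the data. No paired analysis was possible because FA0 and FA4 had a single IP library each, which also left no replicate to omit. A pileup of 29 carries an interval of 19.4 to 41.6, so depth limits the low peaks most.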
